A study of Homo sapiens with 12 samples.

Results

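The enzymes described here attach glucuronic acid, sulfate or glutathione to drugs, hormones and reactive by-products of metabolism: the UDP-glucuronosyltransferases (UGT), the sulfotransferases (SULT) and the glutathione S-transferases (GST). Members were taken by symbol and biotype, as the protein-coding genes of the deposited table whose symbols begin with UGT1A, UGT2A, UGT2B or UGT3A (21 genes), with SULT1, SULT2 or SULT4 (12 genes), with GSTA, GSTM, GSTP, GSTT, GSTO or GSTZ (16 genes for cytosolic GST), with GSTK (1 gene) or with MGST (3 genes). These were 53 of the 58735 genes in the table. The families were chosen with earlier results of these data known.

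Conjugation makes a compound more soluble in water, so that efflux pumps of the ABC family can carry it out of the cell. UGT enzymes sit in the endoplasmic reticulum and use UDP-glucuronic acid, cytosolic SULT enzymes use PAPS, the activated form of sulfate, and GST enzymes use glutathione, either in the cytosol, in mitochondria and peroxisomes (the kappa class) or in membranes (the microsomal class, MGST). Liver, gut and kidney carry most UGT and SULT activity, whereas GSTP1 is known as the prominent GST of lung epithelium and of many carcinomas, and several GST genes are textbook targets of the transcription factor NRF2.

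Levels were read from poly(A) RNA sequencing of A549, an established human cell line of non-small cell lung cancer. The 4 groups held 3 libraries each: shTRIM22 cells 3 days after ionizing radiation, shTRIM22 cells after sham irradiation, shControl cells 3 days after ionizing radiation, and shControl cells after sham irradiation. Both populations stably carry a short hairpin RNA, against TRIM22 (a tripartite motif protein with ubiquitin ligase activity) or a control, and the series' design text calls the 3 libraries of a group biological replicates. The radiation dose, the time at which sham cells were taken, the number of hairpin sequences and whether a population was 1 clone are not stated in the labels, so an effect of the hairpin cannot be told apart from a difference between the populations that carry it.

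The libraries held 14468386 to 17872154 counts each. TRIM22 averaged 2.0 ± 0.579 CPM in irradiated shTRIM22 cells against 17.6 ± 0.969 CPM in irradiated shControl cells, and 0.308 ± 0.0169 CPM in sham shTRIM22 cells against 2.28 ± 0.538 CPM in sham shControl cells (SD, n = 3 each), with no overlap in either pair. CPM is the usual rescaled share of a library's counts, here with TMM factors that correct for library composition. The epithelial keratin genes KRT8 and KRT18 were abundant, whereas the surfactant genes SFTPC, SFTPB, SFTPA1 and SFTPA2 and the lung transcription factor gene NKX2-1 reached at most 0.346 CPM in any library, although ABCA3, SFTPD and NAPSA of the same alveolar type II list had higher levels (121 to 143, 2.18 to 3.46 and 2.67 to 5.33 CPM). The epithelial genes KRT19, CLDN4 and EPCAM were low, at 0.123 to 1.28, 2.635 to 4.3 and 3.04 to 12.5 CPM. Replicate 3 of sham shTRIM22 cells stood apart: mitochondrial transcripts made up 2.67% of its counts, against 9.12% to 14.4% elsewhere, and its chi-square per degree of freedom against its group mates was 58.2 and 84.5, against 2.49 to 7.32 for other pairs of 1 group. Calls of members that were gained or lost without it are named below. Pathway lists and cell type markers are given with it only.

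Of the 53 members, 9 had no count in any library: GSTA5, GSTM1, GSTM5, GSTT2B, GSTT4, UGT1A4, UGT1A5, UGT1A10 and UGT2A2. A count of 0 in a library allows up to 3 counts (95% confidence, counting error only), which is 0.168 to 0.207 CPM without TMM scaling. Another 13 members had 1 to 15 counts over all 12 libraries together, among them the estrogen sulfotransferase gene SULT1E1, the liver and adrenal gene SULT2A1 and the androgen-conjugating UGT2B17. In all, 33 members did not pass the filter on low counts, none of them with more than 13 counts in any library. The 20 that passed were 8 cytosolic GST genes (GSTA4, GSTM2, GSTM3, GSTM4, GSTO1, GSTO2, GSTP1 and GSTZ1), GSTK1, MGST1, MGST2, MGST3, 4 SULT genes (SULT1A1, SULT1A3, SULT1C2 and SULT2B1) and 4 UGT genes (UGT1A1, UGT1A7, UGT2B7 and UGT2B11).

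Per length, GSTP1 had the highest level of all members. It averaged 603 ± 41.8 TPM (counts divided by the deposited gene length and rescaled to a common sum per library, with no TMM scaling) in irradiated shTRIM22 cells, 940.1 ± 279 TPM in sham shTRIM22 cells, 447 ± 13.5 TPM in irradiated shControl cells and 457 ± 4.33 TPM in sham shControl cells (SD, n = 3 each). The library that stood apart had the highest value. Averaged over the 12 libraries, MGST1 followed with 135 TPM, then GSTO1 with 116 TPM, SULT2B1 with 96.6 TPM and GSTK1 with 77.6 TPM. This order differed between groups: SULT2B1 (135 TPM) was above GSTO1 (102 TPM) in sham shControl cells. In sham shTRIM22 cells the mean of GSTO1 (133 ± 53.4 TPM) was above that of MGST1 (109.6 ± 4.12 TPM) only through the library that stood apart. In the other libraries of that group GSTO1 was below MGST1. The highest UGT was UGT2B7 with 13.0 TPM, about the level of GSTA4 (13.1 TPM), and UGT1A7, the highest gene of the UGT1A locus, had 0.741 TPM. Of the exonic bases of UGT1A7, 40.6% are shared with other genes. Reads there may not have been counted, so its TPM may be too low. GSTP1 and MGST1 alone took 57.3% to 65.9% of all counts on members, with the 3 highest shares (65.05%, 65.7% and 65.9%) in sham shTRIM22 cells. The deposited lengths equal all annotated exonic bases of a gene, and the order below GSTP1 and MGST1 depends on that choice: with the length of the principal transcript, GSTK1 (220 TPM) and MGST3 (179 TPM) ranked above SULT2B1 (149 TPM) and GSTO1 (141 TPM).

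**Figure D1:**
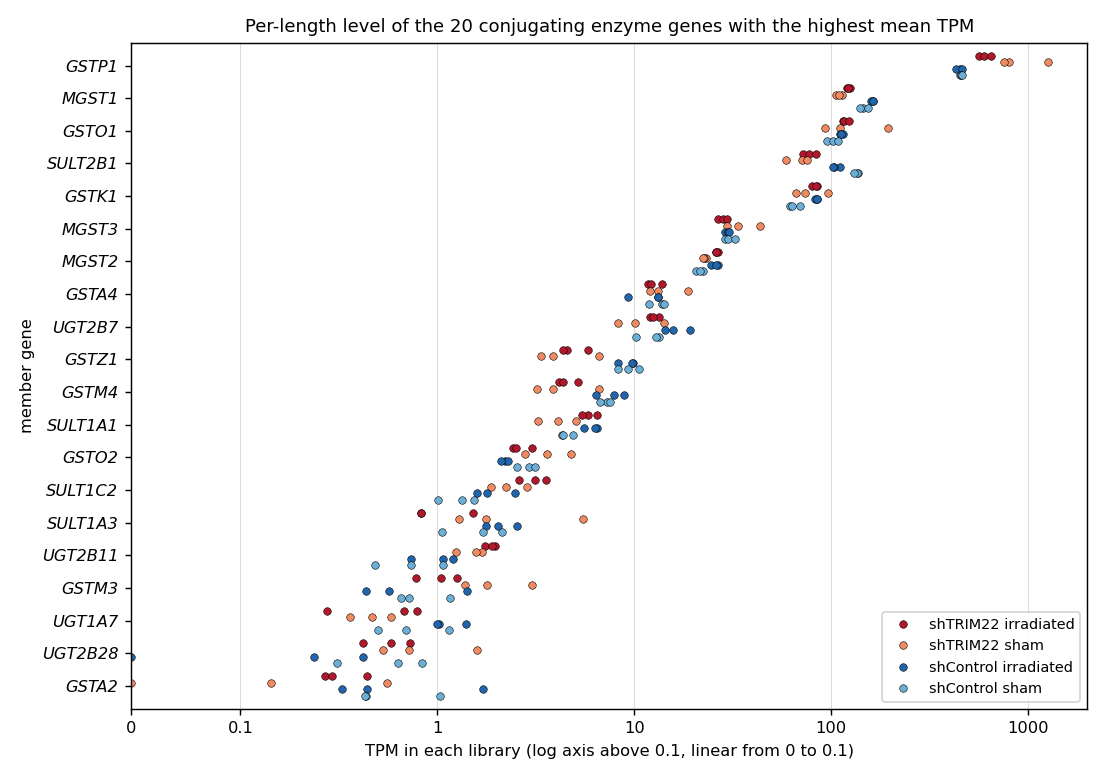
TPM in each of the 12 libraries for the 20 members with the highest mean TPM, 1 point per library, coloured by group, on an axis that is logarithmic above 0.1 and linear from 0 to 0.1. GSTP1 lies above all other members, GST, MGST and SULT2B1 fill the top 8 places, and UGT2B7 (mean 13.0 TPM) is the highest UGT.

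Irradiation raised more members than it lowered in both populations. In shTRIM22 cells 9 of the 20 tested members were called between irradiated and sham libraries, at an adjusted p below 0.05 by edgeR's quasi-likelihood test over 17094 genes, beside 27.5% of all tested genes: 8 were higher (13.5% of all genes) and 1 was lower (14.0% of all genes). Those higher were GSTK1, MGST1, MGST2, SULT1A1, SULT1C2, SULT2B1, UGT1A1 and UGT2B7, and the 1 lower was GSTP1. UGT1A1 passed the filter on low counts mainly through the irradiated shTRIM22 libraries, so its call lends no support to the count. In shControl cells 6 of the 20 were called, beside 18.2% of all tested genes, all of them higher (10.6% of all genes; 7.53% of all genes were called lower): GSTK1, MGST1, MGST2, SULT1A1, SULT1C2 and UGT2B7. The median log2 fold change of the 20 members was 0.38 in shTRIM22 cells and 0.23 in shControl cells, against 0.00 and 0.01 over all tested genes. The share of members called was above that of all genes in both populations, a difference given as a description and not tested. Fewer cells of a type and less RNA per cell cannot be told apart in bulk libraries.

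Knockdown moved members in both directions. After irradiation 6 of the 20 differed between shTRIM22 and shControl cells, beside 35.6% of all tested genes: GSTP1 and SULT1C2 were higher (17.6% of all genes) and GSTM4, GSTZ1, MGST1 and SULT2B1 lower (18.0% of all genes). Without irradiation 8 of the 20 differed, beside 47.5% of all tested genes: GSTM3, GSTP1 and SULT1C2 were higher (25.4% of all genes) and GSTM4, GSTZ1, MGST1, SULT1A1 and SULT2B1 lower (22.1% of all genes). The share of members called was below that of all genes in both comparisons for all calls and for higher calls, and slightly above it for lower calls. The median log2 fold change of members was -0.03 after irradiation and -0.08 without it. Over all 5 comparisons, the 4 above and the interaction given further on, 12 members were called at least once. The share of all tested genes called at least once was not computed, and knockdown without irradiation alone called 47.5% of them. GSTA4, GSTM2, GSTO1, GSTO2, MGST3, SULT1A3, UGT1A7 and UGT2B11 were called in none.

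**Figure D2:**
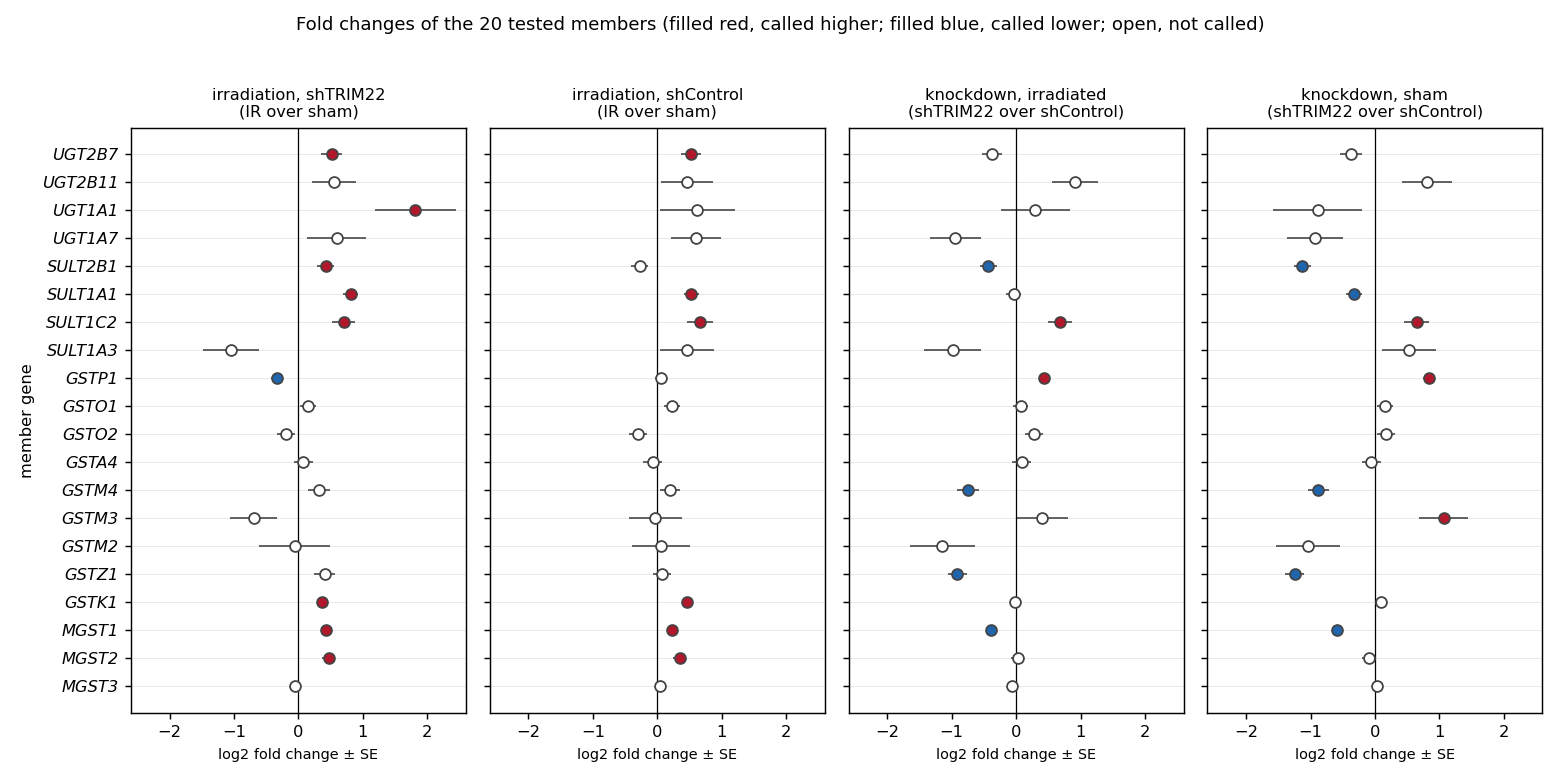
Log2 fold change of each of the 20 tested members, with its SE, in the 4 pairwise comparisons (edgeR, first-named group over the second, 3 libraries per group); filled points were called. MGST2, GSTK1, SULT1A1, SULT1C2 and UGT2B7 lie to the right in both irradiation panels, and GSTZ1, GSTM4, MGST1 and SULT2B1 to the left in both knockdown panels.

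GSTP1 encodes the pi class GST, which conjugates electrophiles and also binds the kinase JNK. It had 366, 388 and 414 CPM in irradiated shTRIM22 cells and 444, 455 and 580 CPM in sham shTRIM22 cells. The shControl libraries held 281.5, 279.8 and 301 CPM after irradiation and 281, 288 and 262 CPM after sham irradiation. Every shTRIM22 library was above every shControl library, and within shTRIM22 cells every irradiated library was below every sham library. In shTRIM22 cells without irradiation the level was 1.78-fold that of shControl cells (log2 fold change 0.83 ± 0.09 SE, adjusted p = 8.81e-07), and after irradiation it was 1.35-fold (0.44 ± 0.09, adjusted p = 0.000826). Irradiation lowered it 1.27-fold in shTRIM22 cells (-0.34 ± 0.09, adjusted p = 0.00779), whereas in shControl cells irradiated and sham libraries overlapped (0.05 ± 0.09, adjusted p = 0.73). The sham library that stood apart was the highest of all 12. Without it the log2 fold changes were 0.70 for knockdown without irradiation and -0.21 for irradiation of shTRIM22 cells, both still called, and the call for irradiation of shTRIM22 cells was lost when those groups were fitted alone (adjusted p = 0.0609).

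The GSTP1 promoter is shown because it is the textbook site of NRF2 and AP-1 action on a GST gene. The 250 bases before the start of the gene (chr11:67583562-67583811, plus strand, GRCh38.p14, RefSeq) are printed 5′ to 3′, with capitals for the stretch that matches both the antioxidant response element core TGACNNNGC and the AP-1 element TGANTCA.
GSTP1: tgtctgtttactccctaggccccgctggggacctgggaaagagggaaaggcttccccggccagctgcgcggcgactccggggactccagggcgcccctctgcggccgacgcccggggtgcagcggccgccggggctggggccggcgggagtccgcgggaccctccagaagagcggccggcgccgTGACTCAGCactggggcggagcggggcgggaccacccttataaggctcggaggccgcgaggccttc
Motifs were searched on both strands in windows of 250 bases before to 50 after each start, and 44 of the 53 member symbols had such a window in the RefSeq table. A symbol counts as holding a motif when any of its windows does. The antioxidant response element core was present for 11 of the 44 symbols (25.0%), against 16.1% of all symbols and 13.3% of 35116 promoters. The xenobiotic response element core GCGTG, read by the aryl hydrocarbon receptor AHR, was present for 14 of the 44 (31.8%), against 40.6% of all symbols and 36.5% of promoters. The AP-1 element was found for 1 member, GSTP1 (2.3% of the 44), against 9.4% of all symbols and 7.7% of promoters, at positions -66 to -60 from the start, inside the antioxidant match at -66 to -58. Of the 20 tested members, 6 held an antioxidant match: GSTP1, MGST1 and SULT1C2, each called in at least 1 comparison, and GSTA4, GSTO1 and UGT2B11, called in none. Such matches describe letters and not occupied sites.

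The microsomal enzymes did not move as 1 class. MGST1, an abundant glutathione transferase and peroxidase of the endoplasmic reticulum and outer mitochondrial membrane, had 303, 316 and 304 CPM in irradiated shTRIM22 cells and 245, 246 and 197 CPM in sham shTRIM22 cells. In irradiated shControl libraries it had 396, 400.1 and 417 CPM, and in sham shControl libraries 352, 343 and 343 CPM. The 4 groups did not overlap anywhere, with every shTRIM22 library below every shControl library. Knockdown lowered MGST1 1.51-fold without irradiation (log2 fold change -0.59 ± 0.07 SE, adjusted p = 4.77e-06) and 1.32-fold after irradiation (-0.40 ± 0.07, adjusted p = 0.000406). Irradiation raised it 1.34-fold in shTRIM22 cells (0.42 ± 0.07, adjusted p = 0.000434) and 1.17-fold in shControl cells (0.23 ± 0.07, adjusted p = 0.0374). The call in shControl cells was lost without any single library of the 2 shControl groups or of the irradiated shTRIM22 group, with adjusted p up to 0.129, and also with upper-quartile scaling (0.0776) or without mitochondrially encoded genes (0.0515). Without the sham library that stood apart all 4 changes were called, at log2 -0.49, -0.40, 0.32 and 0.23 in the same order.

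MGST2, which conjugates glutathione to leukotriene A4, had 27.95, 28.7 and 27.5 CPM in irradiated shTRIM22 cells and 21.2, 22.5 and 17.1 CPM in sham shTRIM22 cells. In shControl cells it had 27.7, 26.5 and 28.4 CPM after irradiation and 21.25, 23.3 and 20.4 CPM after sham irradiation. All 6 irradiated libraries were above all 6 sham libraries, and the populations overlapped. It rose 1.38-fold in shTRIM22 cells (log2 fold change 0.47 ± 0.10 SE, adjusted p = 0.00257) and 1.27-fold in shControl cells (0.35 ± 0.10, adjusted p = 0.0229), the call in shControl cells being lost without replicate 1 or 3 of either shControl group (adjusted p up to 0.0958). Its annotated exons overlap those of MAML3 on the other strand over 252 bases, and the labels do not give the strand setting of the counting. MGST3, the third microsomal enzyme, was called in no comparison and spanned 76.0 to 87.4 CPM over the 12 libraries.

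GSTK1, the kappa class enzyme of mitochondria and peroxisomes, separated by irradiation in both populations. It had 115, 122 and 118 CPM in irradiated shTRIM22 cells and 90.4, 88.3 and 98.1 CPM in sham shTRIM22 cells. In irradiated shControl cells it had 117, 118 and 123 CPM, against 84.9, 87.9 and 87.1 CPM in sham shControl cells. The lowest irradiated library (115 CPM) was above the highest sham library (98.1 CPM), and the sham shTRIM22 libraries were also above the sham shControl libraries by a small margin. The rise was 1.28-fold in shTRIM22 cells (log2 fold change 0.36 ± 0.06 SE, adjusted p = 0.000322) and 1.38-fold in shControl cells (0.46 ± 0.06, adjusted p = 4.47e-05), and both calls held in all 21 alternative settings. Between shTRIM22 and shControl cells its log2 fold changes were -0.01 ± 0.06 after irradiation and 0.09 ± 0.06 without it (adjusted p = 0.895 and 0.224).

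GSTZ1, the zeta class enzyme that isomerises maleylacetoacetate in tyrosine breakdown, showed the largest fall with knockdown among the called members. It had 13.1, 12.5 and 16.5 CPM in irradiated shTRIM22 cells against 22.9, 28.1 and 28.2 CPM in irradiated shControl cells. Without irradiation the values were 9.46, 8.94 and 13.5 CPM in shTRIM22 cells against 22.8, 25.95 and 26.8 CPM in shControl cells. All 6 shTRIM22 libraries were below all 6 shControl libraries. The fall was 1.88-fold after irradiation (log2 fold change -0.91 ± 0.15 SE, adjusted p = 0.000145) and 2.37-fold without it (-1.25 ± 0.15, adjusted p = 4.46e-06), or 2.73-fold without irradiation when the library that stood apart was left out. Irradiation did not pass the test in shTRIM22 cells (0.40 ± 0.16, adjusted p = 0.0649), where the library that stood apart was the highest sham value. Without that library the change was 0.61 and was called (adjusted p = 0.000291), as it was with DESeq2 (0.0494), upper-quartile scaling (0.0461) or no filter on low counts (0.0151).

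The mu class genes lie side by side on chromosome 1, and several are close copies of one another, so reads can be hard to place among them. GSTM4, whose coding sequence is 92.5% identical to that of GSTM1 (no count in any library), had 8.06, 10.2 and 8.365 CPM in irradiated shTRIM22 cells against 14.8, 12.4 and 17.5 CPM in irradiated shControl cells. In sham libraries it had 6.415, 5.78 and 9.14 CPM in shTRIM22 cells against 13.6, 12.6 and 12.9 CPM in shControl cells. No shTRIM22 library reached the lowest shControl library. Knockdown lowered it 1.68-fold after irradiation (log2 fold change -0.75 ± 0.17 SE, adjusted p = 0.00193) and 1.84-fold without irradiation (-0.88 ± 0.17, adjusted p = 0.000418), and 2.14-fold without irradiation when the sham library that stood apart was left out. Its log2 fold change with irradiation of shTRIM22 cells was 0.32 (adjusted p = 0.184) with all libraries and 0.54 (adjusted p = 0.00722) without that library.

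GSTM3, a mu class enzyme first described in testis and brain, went the other way at a much lower level. It had 1.90, 2.675 and 3.46 CPM in sham shTRIM22 cells against 1.01, 1.82 and 1.01 CPM in sham shControl cells. In irradiated libraries it had 1.69, 1.265 and 1.995 CPM in shTRIM22 cells against 2.19, 0.911 and 0.71 CPM in shControl cells. The sham groups did not overlap, by a small margin, and the irradiated groups did. The 2.09-fold rise without irradiation (log2 fold change 1.06 ± 0.38 SE, adjusted p = 0.0283) was not called without the library that stood apart (0.84, adjusted p = 0.0564), without shControl sham replicate 1 (0.0987) or without shControl sham replicate 3 (0.104). GSTM2, which shares exonic bases with GSTM4, had log2 fold changes of -1.15 ± 0.51 and -1.04 ± 0.49 with knockdown after and without irradiation (adjusted p = 0.0882 and 0.0935). The change after irradiation was called without the library that stood apart (adjusted p = 0.0395), without shTRIM22 sham replicate 2 (0.0298) and with the compared groups fitted alone (0.029). That without irradiation was -2.18 and called without shTRIM22 sham replicate 2 (0.0017). GSTM2 had 15 to 20 counts in shControl libraries and at most 8 in shTRIM22 libraries, except 18 in sham replicate 2. It entered these fits only or mainly through the shControl libraries in which it was high, so these calls lend no support to a fall.

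The omega class gene GSTO1, which reduces dehydroascorbate and arsenic species, was among the 5 highest members per length. It had 65.7, 67.0 and 69.2 CPM in irradiated shTRIM22 cells and 54.5, 49.5 and 78.7 CPM in sham shTRIM22 cells. In shControl cells it had 64.0, 63.7 and 65.0 CPM after irradiation and 52.6, 56.9 and 54.3 CPM after sham irradiation. The irradiated libraries of both populations were above all sham libraries except shTRIM22 sham replicate 3, which was the highest of all 12. With all libraries no comparison was called (irradiation 0.14 ± 0.12 in shTRIM22 and 0.23 ± 0.12 in shControl cells, adjusted p = 0.412 and 0.218). Without that library both irradiation effects were called, at log2 0.37 (adjusted p = 1.68e-05) and 0.23 (adjusted p = 0.00168). GSTO2 and the alpha class gene GSTA4, which conjugates lipid aldehydes, spanned 7.15 to 11.4 CPM and 6.84 to 10.04 CPM and were called in no comparison.

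**Figure D3:**
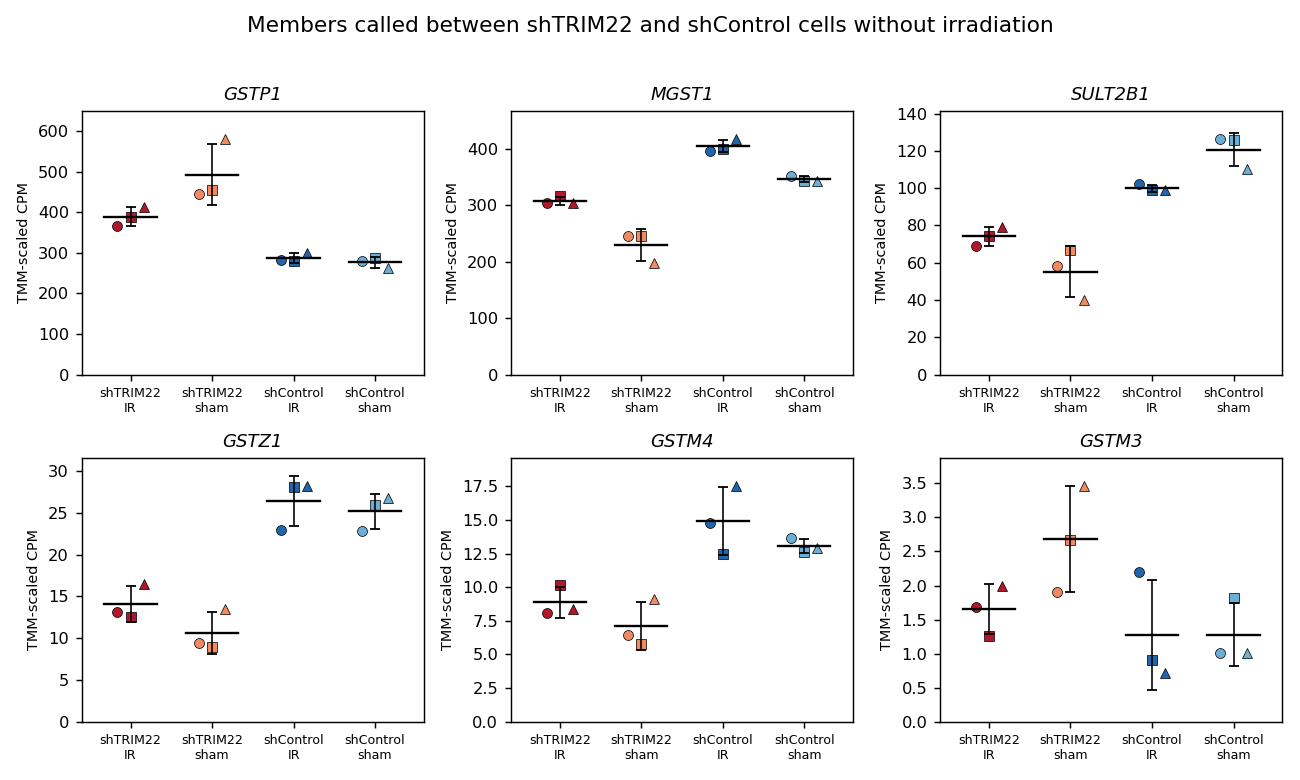
TMM-scaled CPM of GSTP1, MGST1, SULT2B1, GSTZ1, GSTM4 and GSTM3 in each library (IR, irradiated; circle, square and triangle are replicates 1, 2 and 3; line and bar are the mean and SD of 3 libraries). GSTP1 is higher and MGST1, SULT2B1, GSTZ1 and GSTM4 are lower in all shTRIM22 libraries than in all shControl libraries, and the triangle of sham shTRIM22 cells lies apart from its group in several panels.

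SULT2B1 was the sulfotransferase with the highest level. It sulfates cholesterol and related sterols, and is best known from skin and from lung and prostate epithelium. Its values were 68.8, 74.2 and 79.3 CPM in irradiated shTRIM22 cells and 58.4, 67.1 and 40.25 CPM in sham shTRIM22 cells. In shControl cells they were 102, 98.8 and 98.8 CPM after irradiation and 126.3, 125.7 and 110.3 CPM after sham irradiation. All shTRIM22 libraries were below all shControl libraries. Within shTRIM22 cells irradiated libraries were above sham libraries, and within shControl cells they were below them. Knockdown lowered SULT2B1 2.19-fold without irradiation (log2 fold change -1.13 ± 0.13 SE, adjusted p = 1.14e-05) and 1.35-fold after irradiation (-0.43 ± 0.13, adjusted p = 0.0215). Irradiation raised it 1.34-fold in shTRIM22 cells (0.42 ± 0.14, adjusted p = 0.0317), and the log2 fold change in shControl cells was -0.27 ± 0.13, which did not pass (adjusted p = 0.178).

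The SULT2B1 calls depended on the libraries fitted. Without the sham library that stood apart, which had the lowest value of all 12, the fall with knockdown without irradiation was 1.92-fold, the rise with irradiation of shTRIM22 cells 1.18-fold (adjusted p = 0.00574), and the fall with irradiation of shControl cells was called (-0.27, adjusted p = 0.000212). That fall was also called when the shControl groups were fitted alone (4.69e-05) and with no filter on low counts (0.00489). The rise in shTRIM22 cells was lost when those groups were fitted alone (adjusted p = 0.106) and without shTRIM22 irradiated replicate 2 (0.077) or 3 (0.0885) or shTRIM22 sham replicate 1 (0.0505). The fall with knockdown after irradiation was lost without shTRIM22 irradiated replicate 1 (0.0841) or 2 (0.0579) or shControl irradiated replicate 1 (0.0589).

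The promoter of SULT2B1 is printed beside that of GSTZ1, since these members had the largest falls with knockdown without irradiation among those called. Each line holds the 250 bases before the start (SULT2B1 at chr19:48551922-48552171, GSTZ1 at chr14:77320786-77321035, both plus strand, GRCh38.p14, RefSeq), 5′ to 3′, with capitals for matches to the xenobiotic response element core GCGTG.
SULT2B1: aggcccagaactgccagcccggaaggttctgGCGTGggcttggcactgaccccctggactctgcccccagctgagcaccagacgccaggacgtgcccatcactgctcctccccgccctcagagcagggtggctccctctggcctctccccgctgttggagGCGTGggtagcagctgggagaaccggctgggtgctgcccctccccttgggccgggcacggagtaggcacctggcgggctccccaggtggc
GSTZ1: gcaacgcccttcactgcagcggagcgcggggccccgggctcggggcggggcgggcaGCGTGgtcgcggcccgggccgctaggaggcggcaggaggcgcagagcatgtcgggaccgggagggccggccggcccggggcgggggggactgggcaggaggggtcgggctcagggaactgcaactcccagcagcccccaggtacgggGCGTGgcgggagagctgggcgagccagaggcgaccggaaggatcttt
Both windows held 2 matches, at -219 to -215 and -90 to -86 in SULT2B1 and at -194 to -190 and -47 to -43 in GSTZ1. At least 1 match was present in 36.5% of promoters, and the share with 2 matches was not computed. GSTM3, GSTM4, GSTO2, MGST3 and UGT1A7 were the other tested members with a match. Neither window held the antioxidant or AP-1 letters. The members with the match therefore included genes that fell with knockdown (SULT2B1, GSTZ1, GSTM4), 1 that was higher without irradiation (GSTM3) and 3 that were called in no comparison (GSTO2, MGST3, UGT1A7).

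The phenol sulfotransferase gene SULT1A1, which sulfates small phenols and phenolic drugs, rose with irradiation. It had 17.7, 16.4 and 19.4 CPM in irradiated shTRIM22 cells and 10.55, 9.06 and 10.8 CPM in sham shTRIM22 cells. In irradiated shControl cells it had 18.8, 16.9 and 19.2 CPM, against 12.4, 14.3 and 11.5 CPM in sham shControl cells. All irradiated libraries were above all sham libraries. The rise was 1.75-fold in shTRIM22 cells (log2 fold change 0.81 ± 0.12 SE, adjusted p = 0.000115) and 1.44-fold in shControl cells (0.52 ± 0.12, adjusted p = 0.00452), and both calls held in all 21 alternative settings. Without irradiation it was 1.25-fold lower in shTRIM22 cells (-0.33 ± 0.12, adjusted p = 0.035), a call that was lost in 5 settings: without replicate 1 or 2 of either sham group, or with the sham groups fitted alone (adjusted p 0.0526 to 0.168). The coding sequence is 96.8% identical to that of SULT1A2, which had at most 10 counts in a library.

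SULT1C2, a sulfotransferase of fetal and thyroid tissue that acts on small phenols, was higher in every contrast. It had 7.41, 8.92 and 9.97 CPM in irradiated shTRIM22 cells and 4.57, 5.90 and 5.74 CPM in sham shTRIM22 cells. In shControl cells it had 6.79, 5.08 and 4.55 CPM after irradiation and 2.77, 3.70 and 3.83 CPM after sham irradiation. No pair of compared groups overlapped. With irradiation it rose 1.63-fold in shTRIM22 cells (log2 fold change 0.70 ± 0.18 SE, adjusted p = 0.00908) and 1.58-fold in shControl cells (0.66 ± 0.20, adjusted p = 0.029). With knockdown it was 1.61-fold higher after irradiation (0.69 ± 0.18, adjusted p = 0.00774) and 1.57-fold higher without it (0.65 ± 0.20, adjusted p = 0.013). The call in shControl cells was lost without replicate 1 or 2 of either shControl group (adjusted p 0.0536 to 0.157), and that of knockdown without irradiation without shControl sham replicate 1 (0.067).

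SULT1A3, which sulfates dopamine and other catecholamines, had 0.708 to 3.40 CPM and was called in no comparison in the main fit. Its change with knockdown after irradiation (-0.98, adjusted p = 0.0974) was called without the library that stood apart (0.0214), with those groups fitted alone (0.0175) and with no filter on low counts (0.0465). That with irradiation of shTRIM22 cells (-1.045, adjusted p = 0.0872) was called without shTRIM22 sham replicate 2 (0.0214) and with no such filter (0.0331). Its coding sequence is identical to that of SULT1A4, which had 1 count in all libraries together, and 70.7% of its exonic bases are shared with other annotated genes, so its counts are uncertain. The summed SULT level follows SULT2B1. It was 95.35, 101.7 and 110.1 CPM in irradiated and 75.2, 83.6 and 61.3 CPM in sham shTRIM22 cells, and 129.9, 123.8 and 124.5 CPM in irradiated and 142.6, 145.2 and 127.6 CPM in sham shControl cells. Irradiated libraries were above sham libraries in shTRIM22 cells, and irradiated and sham libraries overlapped in shControl cells.

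**Figure D4:**
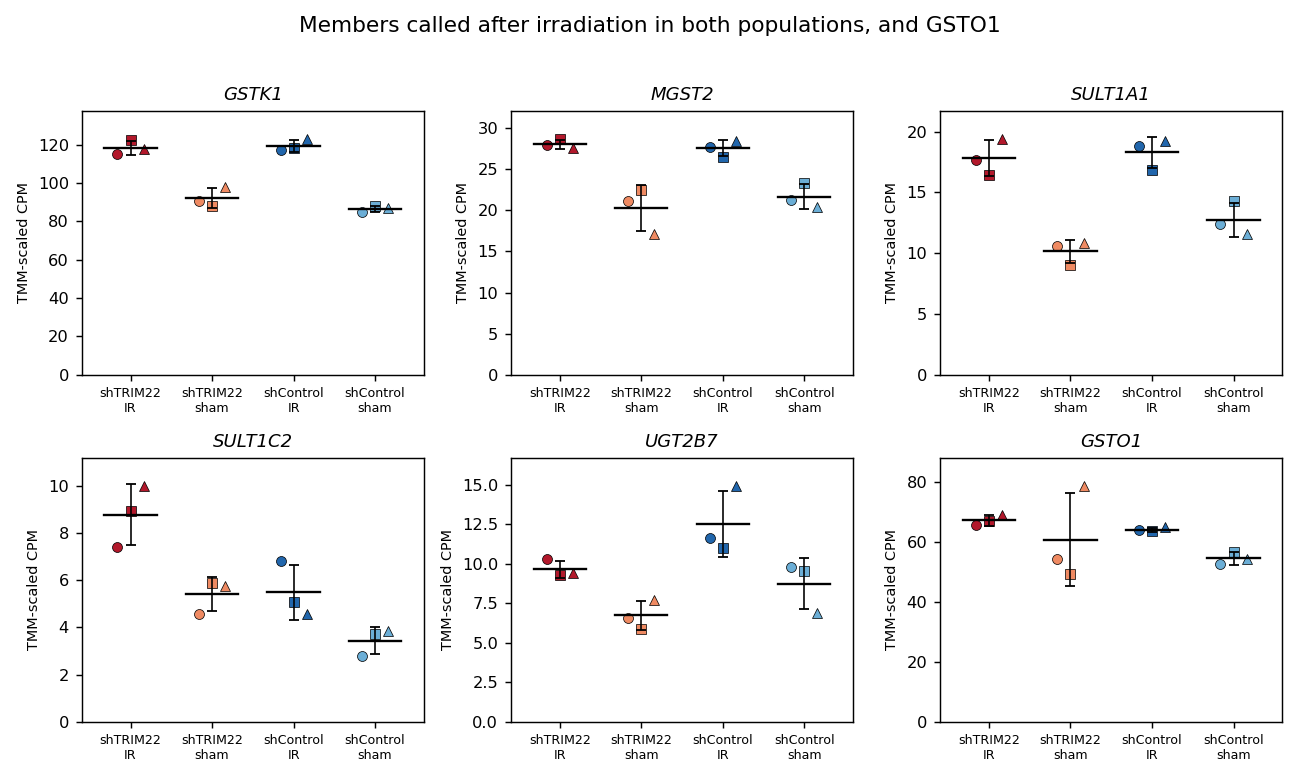
TMM-scaled CPM of GSTK1, MGST2, SULT1A1, SULT1C2, UGT2B7 and GSTO1 in each library (IR, irradiated; circle, square and triangle are replicates 1, 2 and 3; line and bar are the mean and SD of 3 libraries). GSTK1, MGST2 and SULT1A1 are higher in all 6 irradiated than in all 6 sham libraries, and for GSTO1 the triangle of sham shTRIM22 cells (78.7 CPM) lies above all other libraries.

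UGT2B7, which glucuronidates morphine, other drugs and steroids, was the UGT with the highest level. It had 10.3, 9.28 and 9.39 CPM in irradiated shTRIM22 cells and 6.58, 5.90 and 7.73 CPM in sham shTRIM22 cells. In irradiated shControl cells it had 11.6, 11.0 and 14.9 CPM, against 9.81, 9.53 and 6.86 CPM in sham shControl cells. Irradiated libraries were above sham libraries within each population. The rise was 1.43-fold in shTRIM22 cells (log2 fold change 0.52 ± 0.17 SE, adjusted p = 0.0282) and 1.44-fold in shControl cells (0.52 ± 0.16, adjusted p = 0.0298). The call in shTRIM22 cells was lost without any 1 of the irradiated libraries or sham replicate 1 or 2 (adjusted p 0.0504 to 0.0972), and that in shControl cells without replicate 3 of either group (0.172 and 0.147). With knockdown its log2 fold changes were -0.38 ± 0.16 after irradiation and -0.37 ± 0.17 without it (adjusted p = 0.0748 and 0.0773), and both were called without the library that stood apart (adjusted p = 0.0211 and 0.0156).

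UGT2B11, whose coding sequence is 97.0% identical to that of UGT2B28, had 0.338 to 1.56 CPM and was called in no comparison of the main fit. Its log2 fold changes with knockdown were 0.91 ± 0.36 after irradiation and 0.81 ± 0.38 without it (adjusted p = 0.0568 and 0.0927), opposite in sign to those of UGT2B7. The change after irradiation was called with those groups fitted alone (0.0399) or with a replicate block (0.0482). That without irradiation was called without shControl sham replicate 1 (0.047). Summed over its 21 genes, the UGT family had 14.1, 13.7 and 14.8 CPM in irradiated and 9.57, 8.94 and 10.8 CPM in sham shTRIM22 cells. The sums in shControl cells were 16.6, 16.5 and 19.9 CPM after irradiation and 13.3, 14.2 and 10.1 CPM after sham irradiation. Irradiated sums were above sham sums within each population.

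The UGT1A genes are 1 locus on chromosome 2. Each of the 9 protein-coding genes has its own first exon, which encodes the part that binds the substrate, and all share exons 2 to 5, which encode the part that binds UDP-glucuronic acid. The principal transcripts have 1478 exonic bases in common, 735 of them coding, so a read there cannot be placed by gene. The lines below show why: each holds the last 30 bases of exon 1, in lower case, and the first 60 bases of exon 2, in capitals, 5′ to 3′ on the plus strand (GENCODE release 29 transcripts, GRCh38; exon 2 from chr2:233767034-233767093). UGT1A1 (exon 1 ends at chr2:233761122-233761151), UGT1A6 (chr2:233693836-233693865) and UGT1A7 (chr2:233682763-233682792) are shown because they hold most counts of the locus, and UGT1A8 (chr2:233618533-233618562) because its coding sequence is 96.4% identical to that of UGT1A7.
UGT1A1: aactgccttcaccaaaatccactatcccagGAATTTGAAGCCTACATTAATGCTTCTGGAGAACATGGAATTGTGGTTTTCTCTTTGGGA
UGT1A6: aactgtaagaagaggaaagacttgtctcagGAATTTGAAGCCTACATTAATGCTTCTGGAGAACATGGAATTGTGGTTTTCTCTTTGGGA
UGT1A7: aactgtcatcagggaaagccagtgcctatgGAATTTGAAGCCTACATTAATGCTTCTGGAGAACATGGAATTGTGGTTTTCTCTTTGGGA
UGT1A8: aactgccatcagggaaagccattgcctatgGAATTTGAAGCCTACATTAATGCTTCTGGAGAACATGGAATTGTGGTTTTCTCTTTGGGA
The 60 bases in capitals were the same in all 9 genes, and the 30 bases of exon 1 took 8 forms, since UGT1A4 and UGT1A5 end alike.

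Singly, UGT1A genes were near the limit of detection. UGT1A1, which conjugates bilirubin, had 0.650, 0.663 and 0.772 CPM in irradiated shTRIM22 cells and 0.163, 0 and 0.410 CPM in sham shTRIM22 cells. It rose with irradiation there (log2 fold change 1.81 ± 0.63 SE, adjusted p = 0.0407), but the call was lost in 13 of 19 alternative settings, with adjusted p up to 0.11. Its counts reached 10 in all 3 irradiated shTRIM22 libraries (10, 11 and 12) and in 1 other library (12, shControl irradiated replicate 2), so it entered the test mainly through the group in which it was high. In shControl cells it had 0.566, 0.781 and 0.355 CPM after irradiation and 0.440, 0.313 and 0.338 CPM after sham irradiation, which did not pass (0.62 ± 0.59, adjusted p = 0.519). UGT1A7 had 0.390 to 1.91 CPM and was called in no comparison of the main fit. Its change with knockdown after irradiation was called with those groups fitted alone (-0.942, adjusted p = 0.0345). That without irradiation was called without shControl sham replicate 3 (-1.205, adjusted p = 0.0442).

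Summed over its 9 genes, the UGT1A locus had 21, 34 and 37 counts in irradiated and 16, 13 and 21 counts in sham shTRIM22 cells. In shControl cells it had 40, 49 and 47 counts in irradiated and 27, 39 and 30 counts in sham libraries. How reads in the shared exons were counted is not stated in the labels. UGT1A4, UGT1A5 and UGT1A10 had no count in any library, so no read was counted for all 9 genes. The sums may hold reads in the shared exons not at all or once, and need not be the level of the whole locus. In CPM these were 1.365, 2.05 and 2.38 against 0.870, 0.790 and 1.23 in shTRIM22 cells, and 2.83, 3.19 and 2.78 against 1.70, 2.445 and 1.69 in shControl cells. Irradiated sums were above sham sums within each population, and sums in shTRIM22 cells were below those in shControl cells both after irradiation and without it. As a single feature in the edgeR fit, the locus rose 2.00-fold with irradiation of shTRIM22 cells (log2 fold change 1.00 ± 0.29 SE, adjusted p = 0.0183) and fell 2.01-fold with knockdown without irradiation (on the log2 scale it fell by 1.00 ± 0.29, adjusted p = 0.00967). The other contrasts did not pass (irradiation of shControl cells 0.59 ± 0.26, adjusted p = 0.131; knockdown after irradiation -0.60 ± 0.26, adjusted p = 0.0853). The rise was lost without shTRIM22 irradiated replicate 2 or 3 or shTRIM22 sham replicate 1 or 2 (adjusted p 0.0531 to 0.0783), and the fall without shControl sham replicate 2 (0.0552); without the library that stood apart both were called, at 1.21 and -1.21.

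**Figure D5:**
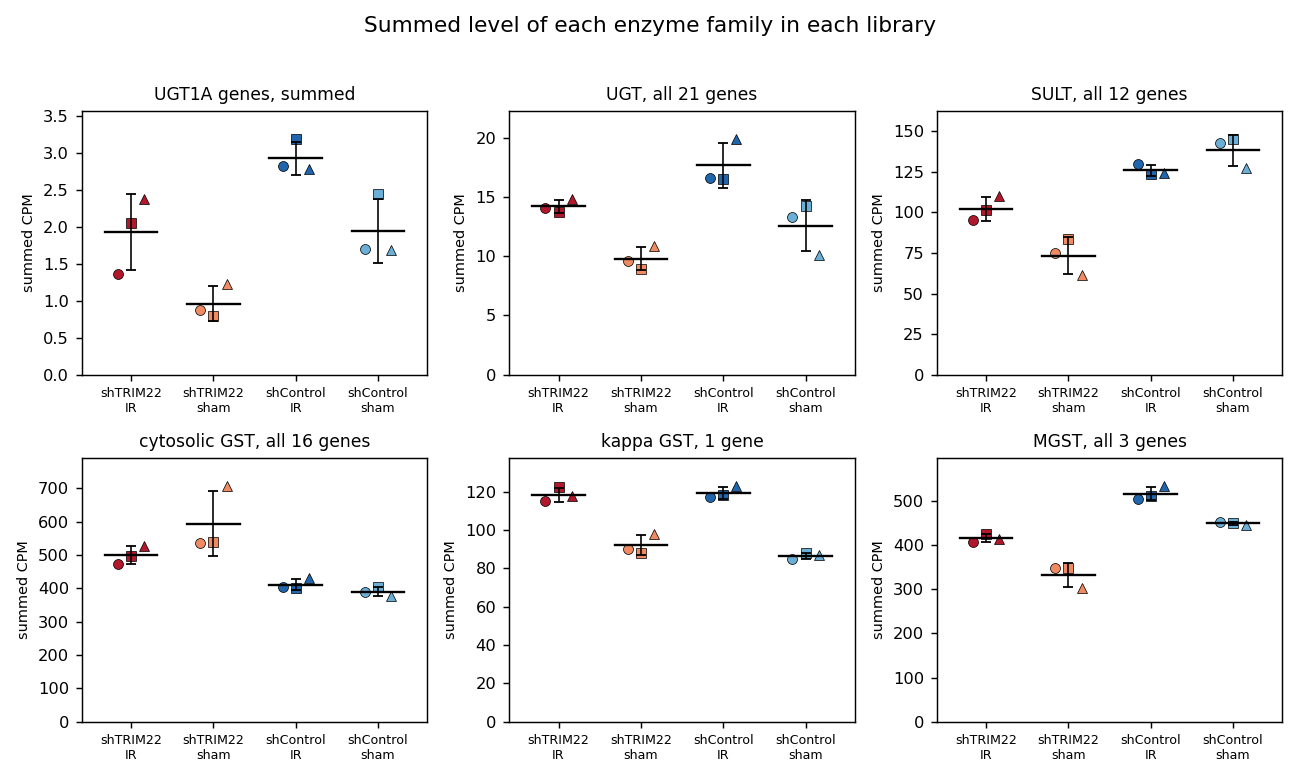
Summed CPM of the UGT1A locus, of all UGT, SULT, cytosolic GST and MGST genes, and of GSTK1, in each library (IR, irradiated; circle, square and triangle are replicates 1, 2 and 3; line and bar are the mean and SD of 3 libraries). The cytosolic GST sum, which is mostly GSTP1, is higher in all shTRIM22 libraries than in all shControl libraries (474.5 to 706.6 against 376.8 to 430.7 CPM), and the MGST sum is lower (301.6 to 424.7 against 444.8 to 532.5 CPM).

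Whether irradiation acted differently in the populations was tested as an interaction, the log2 fold change with irradiation in shTRIM22 cells minus that in shControl cells. No member was called, beside 1.61% of all tested genes (0.521% higher, 1.09% lower). In edgeR 3 of the 20 had an unadjusted p below 0.05, beside 2893 of 17094 genes, a slightly higher share. DESeq2 called 1 member, beside 578 genes. The members nearest the threshold were SULT2B1 (0.70 ± 0.19 SE, adjusted p = 0.0841) and GSTP1 (-0.39 ± 0.12, adjusted p = 0.114), and the third was SULT1A3 (-1.51 ± 0.61, adjusted p = 0.218). DESeq2 called SULT2B1 (0.71, adjusted p = 0.0131). Without the library that stood apart, 3 members were called, beside 6.77% of all tested genes: SULT2B1 (0.51, adjusted p = 0.000118), GSTP1 (-0.26, adjusted p = 0.0132) and GSTZ1 (0.54, adjusted p = 0.0361). SULT2B1 and GSTP1 were also called without shTRIM22 sham replicate 2 (adjusted p = 0.0065 and 0.0384) and with no filter on low counts (6.21e-07 and 0.00682). For the members called with irradiation in both populations, the differences were -0.10 ± 0.08 for GSTK1, 0.12 ± 0.14 for MGST2, 0.20 ± 0.10 for MGST1, 0.29 ± 0.17 for SULT1A1, 0.04 ± 0.27 for SULT1C2 and -0.01 ± 0.23 for UGT2B7, none of which passed.

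Genes that supply the co-substrates moved with knockdown in both directions. The counts of this and the following lists stand beside shares over all tested genes of 25.4% higher and 22.1% lower for knockdown without irradiation, 17.6% and 18.0% for knockdown after irradiation, 13.5% and 14.0% for irradiation of shTRIM22 cells, and 10.6% and 7.53% for irradiation of shControl cells. Of 18 genes of glutathione synthesis and turnover, 8 were higher and 8 lower in shTRIM22 than in shControl cells without irradiation, with a median log2 fold change of 0.15 against 0.02 over all tested genes. Those with the smallest p were lower: SLC7A11, the cystine importer (244 ± 19.4 against 628 ± 37.6 CPM, log2 fold change -1.36), GCLC and GCLM, the subunits of glutamate-cysteine ligase (-0.86 and -0.82), and GGT1, which breaks down glutathione outside the cell (-0.76). Of 11 genes for UDP-glucuronic acid supply, 4 were higher and 3 lower, among them UGDH, which makes UDP-glucuronic acid (202 ± 11.9 against 363 ± 6.95 CPM, -0.85), UXS1, which consumes it (-0.53), SLC35D1, which carries it into the endoplasmic reticulum (0.53), and PGM1 (0.21). Each of these passed the edgeR test, with adjusted p at most 0.0176.

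Genes for sulfate activation and removal rose with irradiation more often than they fell. Of 17 tested genes, 9 were higher and 0 lower in irradiated than in sham shControl cells, and 7 were higher and 0 lower in shTRIM22 cells, with medians of 0.24 and 0.16. With knockdown 4 were higher and 3 lower after irradiation, and 5 were higher and 3 lower without it. The steroid sulfatase gene STS, whose product removes sulfate that SULT enzymes add to steroids, had 51.9 ± 3.27 CPM in irradiated against 24.8 ± 1.46 CPM in sham shControl cells (log2 fold change 1.07 ± 0.10 SE, adjusted p = 1.54e-06). BPNT1, which clears the by-product of sulfation, rose by 0.46, SUMF1, which activates sulfatases, by 0.36, and PAPSS2, which makes PAPS, by 0.32 (adjusted p at most 0.00438).

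Of 9 efflux transporter genes, 7 were higher with irradiation in shTRIM22 cells and 5 in shControl cells, and none was lower. With knockdown without irradiation 3 were higher and 5 lower. ABCC3, an exporter of glucuronides, had 412 ± 11.0 CPM in sham shTRIM22 cells against 1260 ± 50.4 CPM in sham shControl cells (log2 fold change -1.61 ± 0.06 SE, adjusted p = 4.79e-12). ABCC4 was also lower (-1.06), and the drug pumps ABCB1 (1.73) and ABCG2 (1.10) were higher. In the interaction 2 were called higher and 0 lower, beside 0.521% and 1.09% of all tested genes. These were ABCC3 and ABCC2, named here after their values were seen.

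Genes of the NRF2 and AHR pathways moved in both directions, and other regulators were mostly lower where they were called with knockdown. Of 27 genes of the NRF2 pathway outside the families, 10 were higher and 8 lower with knockdown without irradiation, with a median of 0.08. AKR1C2 (-1.55), AKR1B10 (-1.52), AKR1C3 (-0.92) and UGDH were those with the smallest p. Of 9 tested genes of the AHR pathway, 5 were higher and 2 lower with knockdown after irradiation. Among them were CYP1B1 (840 ± 30.3 against 316 ± 1.15 CPM, log2 fold change 1.41), CYP1A1 (1.6 ± 0.647 against 0.235 ± 0.199 CPM, 2.73), ALDH3A1 (-1.57) and ARNT, the partner of AHR (-0.51). CYP1A1 was near the limit of detection in irradiated shControl cells, so its fold change rests on few counts there. Of 17 tested genes for other regulators, 2 were higher and 8 lower with knockdown after irradiation, and 0 and 10 without it, with medians of -0.40 and -0.46. FOXA2 (4.78 ± 0.0285 against 18.9 ± 0.952 CPM, -1.98), RXRA (-0.75) and the bile acid receptor gene NR1H4 (-1.83) were among those with the smallest p after irradiation. Of 14 tested genes for other conjugating enzymes, 5 were higher and 3 lower with knockdown without irradiation: PTGES (0.68) and the thiopurine methyltransferase gene TPMT (0.43) were higher, and EPHX1 (-0.64) and NNMT (-0.79) lower.

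Markers of other cell types were low except for 2 genes. The 7 hepatocyte genes listed, in the cell type with the richest UGT and SULT output, summed to 4.34 to 6.41 CPM in irradiated and 3.22 to 4.03 CPM in sham shTRIM22 cells, and to 6.77 to 7.10 CPM in irradiated and 5.25 to 5.74 CPM in sham shControl cells, with G6PC at 0 in all libraries. The 4 endothelial genes summed to 8.44 to 11.8 CPM in irradiated and 4.92 to 5.14 CPM in sham shTRIM22 cells, against 4.21 to 4.29 CPM in irradiated and 3.83 to 4.51 CPM in sham shControl cells. The blood cell genes summed to 10.6 to 31.3 CPM, nearly all of it CD14. The 7 fibroblast genes summed to 6.46 to 18.5 CPM, and the 8 alveolar type II genes to 126 to 152 CPM, most of it ABCA3 (121 to 143 CPM). The 6 epithelial genes summed to 6836 to 7325 CPM in irradiated and 6520 to 8820 CPM in sham shTRIM22 cells, against 5651 to 6212 CPM in irradiated and 4345 to 4464 CPM in sham shControl cells. Nearly all of it was KRT8 (2524 to 4893 CPM over the libraries) and KRT18 (1573 to 3866 CPM). The part of these lists in the members' changes was not tested.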

How the data were processed

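Raw counts per gene, with gene lengths, symbols and biotypes, were taken from the deposited table of 12 libraries, which the authors had not normalized. Per the submitters' processing notes, build hg38 and DESeq2 1.20.0 were used; how reads were aligned and counted, with which strand setting, is not given in the sources used here. Per the labels, libraries came from poly-T selected RNA.

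Genes were kept by edgeR's filterByExpr on the groups (minimum count 10, 17094 genes), scaled by TMM and tested in 1 fit with 1 mean per group over the 12 libraries (edgeR 4.0.16, limma 3.58.1, R 4.3.3, quasi-likelihood F-test, robust), with Benjamini-Hochberg adjustment over all tested genes and calls below 0.05. The SE is the log2 fold change divided by the square root of F. TPM used the deposited lengths. DESeq2 1.42.0 was an alternative. The test was checked on simulated counts. Libraries are named by group and replicate. The members and gene lists were chosen with earlier results of these data known, and the lists are not independent evidence. Values in every library are given for members called with a log2 change of 0.5 or more in size and 2 CPM or more in a group, and for the 5 highest by TPM; MGST2 and UGT1A1, called outside that rule, were added after their values were seen. From each pathway list, up to 4 called genes with the smallest p in the comparison with most calls were named; some items that this rule or the marker lists hold are not reported here.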

Additional observations from a re-analysis of the deposited data

How the results depend on the processing

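Of 100 pairs of member and comparison, 29 were called, beside 27.5%, 18.2%, 35.6%, 47.5% and 1.61% of all tested genes in the 5 comparisons. Of these pairs 17 kept the call in every one of the alternatives that could be fitted (21 at most), 12 lost it in at least 1, and none changed sign. Of the pairs not called, 19 gained a call in at least 1 alternative. The matching counts of kept, lost and gained calls over all genes were not computed. Leaving out each library in turn gave 6 to 12 members called for irradiation of shTRIM22 cells, 3 to 8 for irradiation of shControl cells, 5 to 9 for knockdown after irradiation, 7 to 9 for knockdown without irradiation and 0 to 3 for the interaction; over all genes it gave 3356 to 5389, 2135 to 5260, 5009 to 7943, 7047 to 8692 and 111 to 1185 calls, against 4702, 3107, 6092, 8116 and 276 with all libraries. The lowest count for irradiation of shControl cells came without replicate 1 or 3 of either shControl group, and leaving out shTRIM22 sham replicate 3 gave 12, 8, 9, 9 and 3 members, beside 30.8%, 30.1%, 45.4%, 49.7% and 6.77% of all genes tested then. The 9 for knockdown without irradiation include UGT1A6, which entered the test only through shControl libraries. The 9 for knockdown after irradiation include GSTM2, which entered it mainly through them. For the UGT1A locus the range was 0.84 to 1.21 for irradiation of shTRIM22 cells and -1.21 to -0.81 for knockdown without irradiation, an alternative chosen after seeing the data. Fitting the compared groups alone gave 2912 genes for irradiation of shTRIM22 cells, 5224 for irradiation of shControl cells and, for knockdown after irradiation, 11 members beside 7967 of 16084 genes. Those members include GSTM2, which entered that fit only through shControl libraries. For the interaction, no filter on low counts gave 2 members and 754 genes, and DESeq2 1 member and 578 genes. With the principal transcript length, also chosen after seeing the data, GSTP1 had 844 TPM, MGST1 723, SULT2B1 149 and GSTK1 220. The cause of these changes was not tested, except that the lengths differ by construction.

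The replicate numbers were not taken to pair the libraries. Same-numbered libraries deviated together only weakly, with correlations over all genes of 0.076, 0.029 and 0.094 for knockdown without irradiation. Over genes with a mean of at least 10 CPM these were 0.193, 0.170 and 0.294, and each library there correlated best with its own number, which is a hint from the data and not from the design. With the replicate block, 9, 6, 7, 8 and 0 members were called in the order above, beside 4735, 3114, 6114, 8110 and 229 genes: UGT1A1 was lost (adjusted p = 0.0544) and GSTZ1 gained (0.0221) for irradiation of shTRIM22 cells, and UGT2B11 gained (0.0482) for knockdown after irradiation. Counts of UGT1A genes (13 to 49 per library in the sum of the 9 genes, with the counting of shared exons not stated) limit what can be seen there.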
